A study of Arabidopsis thaliana with 12 samples.

Results

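Gene expression in the H3K4 mutants was measured by RNA sequencing in whole seedlings of Arabidopsis thaliana, as the average of both mutants against the average of both controls. The comparison used all 12 libraries of the study, 6 of mutants and 6 of controls, and 20881 of the 27655 genes in the deposited table, those with at least 1 TPM in at least 3 libraries. TPM, the transcript share in the unit used by the authors, scales each library to the same sum after division by gene length. The controls were wild type (Col) and the line labelled h3.3ko;HTR5, in which the genes for histone H3.3 are knocked out and HTR5, an H3.3 gene, is supplied (called HTR5 below). The mutants were h3.3ko;HTR5 K4A, the same knockout supplied with HTR5 whose lysine at position 4 is an alanine (called K4A), and sdg2, a mutant of the H3K4 methyltransferase gene SDG2. Each group had 3 libraries, from seedlings aged 3 weeks and grown at 22 °C in days of 16 h light and 8 h dark. The H3.3 knockout was thus carried by 1 control and 1 mutant. It cancels from the average only if it acts alike in both lines, which was not tested. The allele of sdg2, the promoter of the HTR5 constructs, the number of transgenic lines and the hour of harvest are not given in the sources used here. Nothing states that the libraries of a group came from separate cultures, so p-values measure the spread between these libraries, which may be technical.

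Methylation of histone H3 at lysine 4 marks the start of transcribed genes in plants as in other eukaryotes. It is laid down by methyltransferases of the ATX group and by SDG2, which supplies much of the trimethylated form in Arabidopsis, and it is removed by demethylases of the JMJ and LDL families. H3.3 is the H3 variant that is deposited outside DNA replication and is common over transcribed genes. A change from lysine to alanine leaves no residue for methylation on that H3.3, while loss of SDG2 removes an enzyme and leaves the residue. The average of both mutants gives the mean change over both routes and can be carried by either mutant alone. Which changes both routes share is therefore read from each mutant against its own control as well.

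The residue changed in K4A lies at the start of the HTR5 protein. The first 30 coding bases of the reference gene (chr4:18558207-18558236, minus strand, RefSeq TAIR10.1) are shown because they hold the mutated codon, in capitals, with lysine 4 counted after the start methionine.
HTR5 coding start: atggctcgtactAAGcaaacagctcgtaag

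The libraries of controls held 13718753 to 14536027 reads assigned to genes, and those of mutants 20725060 to 30364749, as worked out from the low TPM values. Chloroplast-encoded genes held 0.1555 to 0.431% of TPM in the control libraries, with the highest value in HTR5 replicate 2, and 0.0292 to 0.0446% in the mutant libraries. The 10 most abundant genes took 10.49 to 11.32% of TPM in 5 control libraries, 7.98% in HTR5 replicate 2 and 4.66 to 5.64% in mutants. HTR5 replicate 2 thus stood apart from the other controls, and without it the genes common to both mutants, defined below, were 11812 in place of 10650. These measures part the libraries just as the comparison does, so a batch with that split and the genotype cannot be told apart in any value below. HTR8, an H3.3 gene, stood at 234 to 249 TPM in Col and 172 to 215 in sdg2, against 3.99 to 10.1 in HTR5 and 3.99 to 5.64 in K4A. HTR4, another H3.3 gene, stood at 308 to 321 TPM in Col and 258 to 282 in sdg2, against 161 to 179 in HTR5 and 71.9 to 86 in K4A. HTR4 was thus lower but still read in both knockout lines, and it changed by -1.12 for K4A over HTR5. The gene HTR5 stood at 390.1 to 394 TPM in Col and 396 to 457 in sdg2, against 245 to 288 in the HTR5 line and 309 to 341 in K4A. Its change was 0.24 for K4A over HTR5 and -0.52 for HTR5 over Col. Reads of the near-identical H3.3 genes HTR4, HTR5 and HTR8 may have been split among them. SDG2 stood at 18.3 to 24.2 TPM in Col and 139 to 174 in the libraries labelled sdg2, which goes against a loss of that transcript. Each direction given for sdg2 is therefore that of the libraries labelled sdg2. In bulk seedlings, fewer cells of a type and less RNA per cell cannot be told apart.

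Most listed genes of defence, of protein folding in the endoplasmic reticulum and of the evening clock were higher in the mutants, and most of photosynthesis, aliphatic glucosinolates, SAUR proteins and aquaporins were lower. Of the 20881 genes tested with limma, 78.6% were called in the average at an adjusted p under 0.05, 52.5% of them higher and 26.1% lower as shares of all genes. K4A against HTR5 had 68.6% of genes called, 42.5% higher and 26.1% lower, and sdg2 against Col had 73.2%, with 52.4% higher and 20.7% lower. A call in the average alone is thus near the background for any gene. Genes were taken as common to both mutants when they were called the same way in the average and in each mutant against its own control, K4A over HTR5 and sdg2 over Col, which share no library. Such genes made up 51% of those tested. There were 7459 such rises (35.7% of genes tested) and 3191 such falls (15.3%). The change was at least 2-fold in both own comparisons for 1873 of the rises (8.97%) and 868 of the falls (4.16%), together 13.1%, and these shares are the background for the lists below. All 6 mutant libraries lay beyond all 6 control libraries for 9548 genes (45.7%), higher for 32.1% and lower for 13.6%. They did so for 99.3% of the 1873 rises and 97.8% of the 868 falls. That largely follows from how these genes were chosen, on the same libraries. The control groups differed from each other for 9.28% of genes.

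The split between rises and falls depended on scaling. The median log2 difference of all genes tested was 0.22 on the TPM + 1 scale, and 0.00 after median-of-ratios scaling. Among genes called in the average, 66.8% were higher with TPM as deposited, 50.1% after median-of-ratios scaling, 47.6% after quantile normalization and 56.5% with limma-voom on the recovered reads. Among the common genes these shares were 70%, 50.8%, 47.5% and 58.3%. The 1873 rises and 868 falls of at least 2-fold became 1420 and 1237 after median-of-ratios scaling, 1391 and 1267 after quantile normalization and 2021 and 1419 with limma-voom, so the background of the lists moves with the scaling too. Of the 10650 common genes, 80% kept their calls and direction after median-of-ratios scaling and 76.2% after quantile normalization. List medians below are log2 differences of the average on the TPM + 1 scale, and each is also given relative to the median of all genes.

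**Figure D1:**
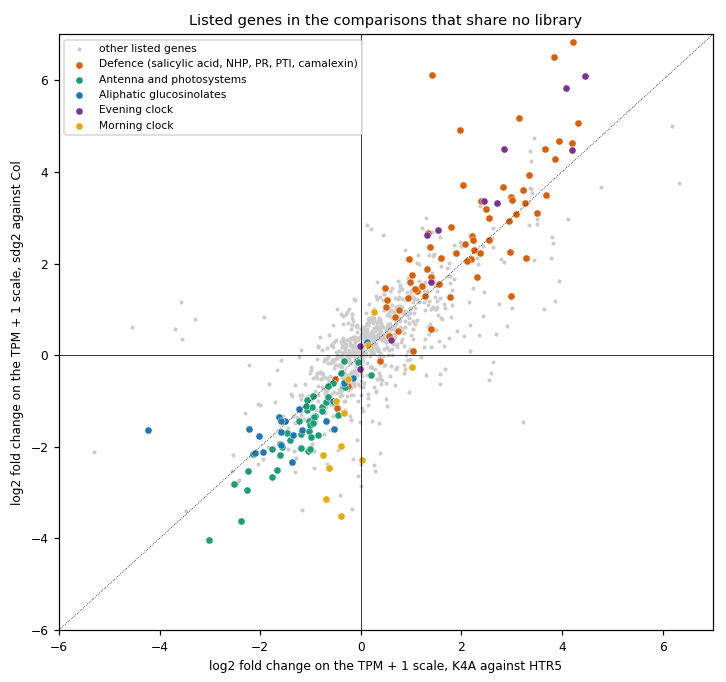
Each point is 1 gene of the pathway lists, with its log2 fold change of K4A over HTR5 on the x axis and of sdg2 over Col on the y axis, both on the TPM + 1 scale; the dotted line marks equal change. Defence and evening clock genes lie mostly in the upper right and antenna, photosystem and aliphatic glucosinolate genes mostly in the lower left, while several morning clock genes lie below the dotted line.

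The genes with the strongest common change were ranked by the smaller of the 2 own changes, and the leading 12 in each direction were taken from 5967 rises and 2334 falls that did not overlap between mutants and controls. The rises were led by CHI (AT2G43570, chromosome 2, 18076166 to 18077517), a chitinase, an enzyme type that cuts fungal cell wall chitin. CHI stood at 29.4, 29.8 and 24.8 TPM for Col, 29.7, 23.4 and 32.4 for HTR5, 1637, 1501 and 1409 for K4A and 1330.2, 1564 and 1485 for sdg2. All mutant libraries lay far above all control libraries and the mutants overlapped each other, and the average log2 difference was 5.67 ± 0.0743 (SE, adjusted p = 9.27e-18). PLA2A, a lipid acyl hydrolase of the patatin type, stood at 7, 6.03 and 7.21 TPM for Col, 5.21, 5.78 and 4.36 for HTR5, 327, 305 and 299.7 for K4A and 371, 377 and 405 for sdg2. Its average difference was 5.66 ± 0.0621 (SE, adjusted p = 2.22e-18), with changes of 5.68 for K4A over HTR5 and 5.64 for sdg2 over Col and every sdg2 library above every K4A library.

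WRKY75 (AT5G13080, chromosome 5, 4149738 to 4151201), a transcription factor of the WRKY family linked to defence and leaf ageing, stood at 2.57, 2.36 and 2.27 TPM for Col, 1.03, 2.07 and 1.7 for HTR5, 73.2, 84.2 and 86.1 for K4A and 127, 97.4 and 102 for sdg2. The control libraries were all low and the mutant libraries all high, with an average difference of 5.0 ± 0.0986 (SE, adjusted p = 5.68e-16). AOX1D, an alternative oxidase of mitochondria, stood at 4.95, 2.79 and 3.94 TPM for Col, 0.915, 0.654 and 0.864 for HTR5, 129, 125 and 139 for K4A and 159, 143 and 157 for sdg2. Every sdg2 library lay above every K4A library and every HTR5 library below every Col library, and the change was 6.19 for K4A over HTR5 and 5.0 for sdg2 over Col.

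GSTF7, a glutathione S-transferase induced in defence, stood at 28.3, 29.7 and 26.4 TPM for Col, 25.1, 29.2 and 21 for HTR5, 741, 624 and 811 for K4A and 974, 874 and 890.0 for sdg2, an average difference of 4.89 ± 0.0752 (SE, adjusted p = 5.62e-17). ABCG40, a transporter of the plasma membrane that imports abscisic acid, rose by 5.12, from 2.3 to 4.58 TPM in the control libraries and 95.2 to 234 TPM in the mutant libraries. GLP9, a germin-like protein, held at most 3 reads in any HTR5 library and was at least 153-fold higher in K4A, with 3 reads per library taken as the floor. A trio of berberine bridge enzyme-like oxidases, AT1G26390, AT1G26410 and AT1G30700, rose by 5.94, 5.03 and 5.81. AT1G13520 and AT2G18690, with no role given in the annotation, rose by 5.69 and 5.16.

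The falls were led among nuclear genes with depth by AGP12 (AT3G13520, chromosome 3, 4408925 to 4409734), an arabinogalactan protein of the cell surface. AGP12 stood at 422, 395 and 448 TPM for Col, 441, 372 and 382 for HTR5, 15.6, 20.7 and 25 for K4A and 18.2, 17 and 17.4 for sdg2. No library of a mutant came near any control, and the average difference was -4.37 ± 0.0849 (SE, adjusted p = 4.75e-16). AT5G48490, annotated as a lipid-transfer-like protein, stood at 87.7, 91 and 86.3 TPM for Col, 120.0, 120.3 and 117 for HTR5, 5.46, 7.06 and 9.4 for K4A and 1.58, 2.26 and 1.54 for sdg2, with a larger fall in sdg2. AT3G07450 of the same superfamily held at most 3 reads in any mutant library and was at least 35.2-fold lower in mutants than in controls. AT5G22490, a WSD1-like O-acyltransferase, fell by 4.07 on the log2 scale, AT4G33666 fell by 4.13 and AT3G22210 fell by 3.7, the last pair with no role given in the annotation.

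The other named falls were the short gene AT2G01021 and 5 chloroplast-encoded genes. AT2G01021, of 102 bp, stood at 184, 70.9 and 130.3 TPM for Col, 116, 47.9 and 202 for HTR5, 1.07, 3.48 and 2.22 for K4A and 3.25, 1.16 and 3.28 for sdg2 and held at most 4 reads in any mutant library. ATCG00020 stood at 339, 215 and 247 TPM for Col, 308, 745 and 339.7 for HTR5, 25.2, 13.8 and 18.6 for K4A and 23.1, 24.4 and 21.5 for sdg2. ATCG00490 ranged over 71 to 180.4 TPM in the control libraries and 4.26 to 5.53 TPM in the mutant libraries, ATCG00300 over 25.9 to 83.9 TPM in the control libraries and 0 to 3.46 TPM in the mutant libraries and ATCG00330 over 20.4 to 55.6 TPM in the control libraries and 0 to 3.24 TPM in the mutant libraries. ATCG00560 was listed at 0 in 5 of the 6 mutant libraries. The files and the annotation used here give no names for these chloroplast genes.

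**Figure D2:**
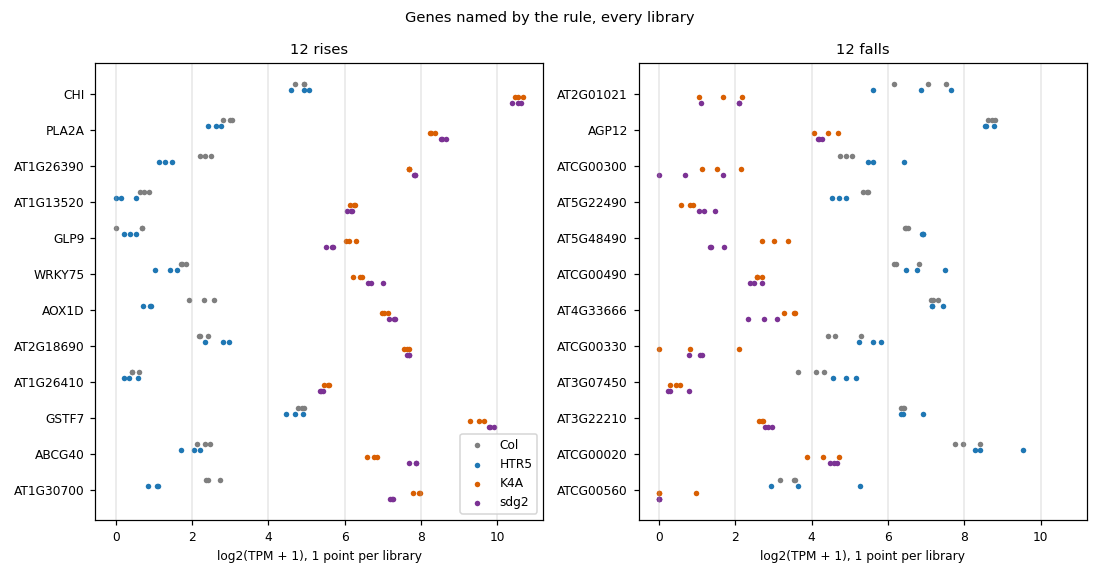
Every library is a point at its log2(TPM + 1), x axis, for the 12 rises and 12 falls named by rank, y axis, coloured by group. No mutant library overlaps a control library in any of the 24 genes, as the choice of genes requires, and CHI, for example, lies between 23.4 and 32.4 TPM in controls and between 1330.2 and 1637 TPM in mutants.

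The sequence upstream of the leading genes was read from the genome, 250 bases ahead of each annotated gene start, for 20767 of the genes tested. The W-box, the DNA word that WRKY factors bind (TTGACC or TTGACT on either strand), lay in the windows of 9 of the 12 leading rises, CHI, WRKY75 and AOX1D among them. The windows of these 3 genes are shown with the W-box in capitals (RefSeq TAIR10.1, 5′ to 3′ toward the gene). They lie at chr2:18077518-18077767, minus strand for CHI, at chr5:4151202-4151451, minus strand for WRKY75 and at chr1:11668691-11668940, minus strand for AOX1D, and the match starts 49, 11 and 62 bases ahead of the gene.
CHI: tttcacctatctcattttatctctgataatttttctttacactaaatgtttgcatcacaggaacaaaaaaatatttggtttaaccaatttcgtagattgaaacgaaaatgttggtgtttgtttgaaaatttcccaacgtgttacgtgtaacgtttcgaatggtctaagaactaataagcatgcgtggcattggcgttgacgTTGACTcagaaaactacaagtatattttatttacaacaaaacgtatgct
WRKY75: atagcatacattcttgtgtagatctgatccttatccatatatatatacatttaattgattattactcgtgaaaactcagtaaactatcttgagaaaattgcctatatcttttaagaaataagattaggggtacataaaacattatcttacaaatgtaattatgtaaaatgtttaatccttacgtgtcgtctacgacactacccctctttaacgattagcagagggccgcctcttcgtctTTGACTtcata
AOX1D: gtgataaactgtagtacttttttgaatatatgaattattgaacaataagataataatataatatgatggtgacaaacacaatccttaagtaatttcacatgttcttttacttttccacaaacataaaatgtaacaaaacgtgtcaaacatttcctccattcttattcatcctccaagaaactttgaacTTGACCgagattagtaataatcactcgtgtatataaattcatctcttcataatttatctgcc

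Across sets, a W-box was held by 28.4% of all windows, 41% of those of the 1873 strong common rises and 21.6% of those of the 868 strong common falls. The CGCG motif bound by CAMTA factors (ACGCGT or CCGCGT or ACGCGG or CCGCGG) was held by 4.03%, 7.69% and 1.84%. The heat shock element GAANNTTC was held by 9.47%, 14.8% and 7.36%, and the G-box CACGTG by 7.28%, 6.99% and 7.24%. The words TGGGCC or TGGGCT were less frequent in both sets, at 13.3% of strong rises and 14.2% of strong falls, than in all windows, at 21.8%. These shares are a description with no test, and a match is not a site shown to be bound.

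The strong sets differed in gene structure as well. The median gene span was 2222 bp for the strong rises and 1188 bp for the strong falls, against 2340 bp for all genes tested. Genes without an intron made up 23.9% of strong rises and 32.8% of strong falls, against 16.5% of all. TPM here was divided by the whole span with introns, which lowers the level of long genes in every library alike. The strong sets were spread over the 5 chromosomes in shares like those of all genes, with 27.4% and 26.5% on chromosome 1 against 26.4%.

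Salicylic acid, the hormone of defence against pathogens that live on living cells, is made from chorismate by a route that uses ICS1, EDS5 and PBS3. It acts through NPR1 and its relatives. Of the genes of this pathway tested, 16 of 18 were called higher and 1 lower, and 14 rose at least 2-fold in both mutants, with a median of 2.11 (1.89 relative to all genes). ICS1 stood at 11.4, 11.3 and 9.74 TPM for Col, 14, 17.6 and 14.2 for HTR5, 51.8, 57.4 and 57.2 for K4A and 83, 76.5 and 82.4 for sdg2. Both mutants lay above both controls, with sdg2 highest, and the average difference was 2.3 ± 0.066 (SE, adjusted p = 4.49e-14). EDS5 rose by 2.93 and PBS3 by 2.4. The upstream regulators SARD1 and CBP60G, which switch on ICS1, rose by 4.08 and 3.23.

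SARD1 stood at 2.78, 2.68 and 2.59 TPM for Col, 3.47, 2.72 and 2.8 for HTR5, 48.9, 51.2 and 49.2 for K4A and 84.4, 80 and 80.9 for sdg2, low in every control and high in every mutant library. The lipase-like signalling proteins EDS1, PAD4 and SAG101, which act together, rose by 2.38, 2.14 and 2.3. NPR1, the salicylic acid receptor that activates defence genes, rose by 1.55, and the receptors NPR3 and NPR4, which restrain them, rose by 2.08 and 0.97. DLO1 and DMR6, which hydroxylate salicylic acid, rose by 5.52 and 1.87. DLO1 stood at 6.82, 6.04 and 5.37 TPM for Col, 5.57, 6.15 and 5.39 for HTR5, 131, 128 and 112 for K4A and 749, 844 and 806 for sdg2, so that both mutants were above the controls and sdg2 was above K4A. ICS2, the second copy of the synthase, was called lower in the average at -0.47, and EPS1, which acts late in the synthesis, stood at 0.13 and was not called, but was called lower after quantile normalization, at -0.17.

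N-hydroxypipecolic acid carries defence from one leaf to others. All 4 genes of its pathway rose at least 2-fold in both mutants, with a median of 2.98 (2.76 relative to all genes). FMO1, which makes the final compound, stood at 0.979, 0.289 and 0.582 TPM for Col, 0.276, 0.744 and 0.459 for HTR5, 19.9, 20.1 and 20.9 for K4A and 144, 140.2 and 145 for sdg2. It was under 1 TPM in every control library, and the average difference was 5.17 ± 0.104 (SE, adjusted p = 6.93e-16). ALD1 and SARD4, the earlier steps, rose by 2.88 and 3.08, and UGT76B1, which adds a sugar to the product, rose by 2.53. All 5 listed pathogenesis-related genes rose at least 2-fold in both mutants too, but by unequal amounts, and the difference of effects was called for each. PR2, a glucanase, ranged over 75.5 to 91.1 TPM in the control libraries and 757 to 2907 TPM in the mutant libraries, and changed by 3.15 for K4A over HTR5 and 5.18 for sdg2 over Col. PR5, a thaumatin-like protein, changed by 1.97 for K4A over HTR5 and 4.92 for sdg2 over Col, and PR3, a chitinase, by 3.28 for K4A over HTR5 and 2.12 for sdg2 over Col.

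Pattern-triggered immunity begins at receptors of the cell surface that bind pieces of microbes. Of the genes of this layer, 24 of 25 were called higher and 1 lower, 15 rose at least 2-fold in both mutants, and the median was 1.51 (1.29 relative to all genes). SOBIR1 (AT2G31880, chromosome 2, 13554870 to 13556977), the kinase that partners receptor-like proteins, stood at 50.7, 53.2 and 48.2 TPM for Col, 53.9, 66.2 and 53.7 for HTR5, 597, 625 and 575 for K4A and 777, 774 and 823 for sdg2. The groups of mutants and controls did not overlap, and the average difference was 3.65 ± 0.0532 (SE, adjusted p = 2.95e-17). RLP23, the receptor of a microbial peptide that works with SOBIR1, rose by 3.59, and the chitin receptor LYK5 by 3.3. BIK1, a kinase below these receptors, rose by 2.61, and BAK1, a co-receptor, by 1.09.

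Downstream of the receptors, the kinase gene MPK3 stood at 84.7, 94.1 and 87.9 TPM for Col, 74.4, 86.6 and 75.3 for HTR5, 350.4, 335 and 312 for K4A and 457, 496 and 482 for sdg2, an average difference of 2.24 ± 0.0494 (SE, adjusted p = 2.00e-15). FRK1, a kinase gene used as a marker of this response, rose by 4.31, from 0.568 to 0.961 TPM in the control libraries and 25.4 to 43.3 TPM in the mutant libraries. RBOHD, the oxidase that makes the burst of reactive oxygen, rose by 1.51. PROPEP1, a precursor of a danger peptide, fell by 0.79 on the log2 scale while its relative PROPEP3 rose by 3.3. PROPEP2 held at most 3 reads in any control library and was at least 7.92-fold higher in mutants. PEPR1, a receptor of these peptides, was called in the average at 0.56 but was 1.03 for K4A over HTR5 and 0.10 for sdg2 over Col, and the latter was not called.

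Receptor families named by the annotation moved with these lists. Of the cysteine-rich receptor-like kinases, 29 of 32 were called higher and 2 lower, and 22 rose at least 2-fold in both mutants, with a median of 1.88 (1.66 relative to all genes). CRK7 (AT4G23150) stood at 2.39 ± 0.409 TPM (SD, n = 3) for Col, 2.63 ± 0.389 for HTR5, 49.6 ± 2.31 for K4A and 175 ± 7.89 for sdg2, and CRK36 (AT4G04490) at 4.27 ± 0.584 TPM (SD, n = 3) for Col, 3.85 ± 0.539 for HTR5, 66 ± 0.898 for K4A and 88.6 ± 3.09 for sdg2. CRK21, of the same family, fell by 1.63 on the log2 scale. Members of families, here and below, were chosen for the text after their values were seen. Near-identical neighbours on chromosome 4 may share reads in this family. Of the receptor-like proteins, 41 of 46 were called higher and 3 lower, with a median of 1.19 (0.97 relative to all genes), and RLP28 stood at 0.689 ± 0.195 TPM (SD, n = 3) for Col, 0.632 ± 0.192 for HTR5, 90.7 ± 5.7 for K4A and 40 ± 3.2 for sdg2.

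All 12 wall-associated kinases tested were called higher, with a median of 1.16 (0.93 relative to all genes), and WAK3 stood at 2.22 ± 0.554 TPM (SD, n = 3) for Col, 2.64 ± 0.403 for HTR5, 58.3 ± 0.88 for K4A and 174 ± 11.8 for sdg2. Of the lectin receptor kinases, 38 of 45 were called higher and 3 lower, with a median of 1.13 (0.90 relative to all genes). The large family of leucine-rich repeat receptor kinases did not share this: 70 of 130 were called higher and 21 lower, and the median of 0.24 was 0.02 relative to all genes and turned to -0.03 after quantile normalization.

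Inside the cell, NLR proteins detect effectors of pathogens. Of NLR genes of known function, 18 of 19 were called higher and 1 lower, with a median of 0.99 (0.77 relative to all genes). The helper genes ADR1, ADR1-L1 and ADR1-L2, which work with EDS1, rose by 2.22, 2.23 and 1.88. ADR1-L1 stood at 25.1, 23.5 and 24.3 TPM for Col, 26.7, 30.2 and 26.9 for HTR5, 115, 113 and 109.8 for K4A and 138, 137 and 146 for sdg2, with no overlap between mutants and controls. SNC1 and its neighbour genes RPP4 and RPP5, close copies of each other, rose by 0.99, 1.14 and 1.08. SUMM2, an NLR that guards a kinase cascade, fell by 0.66 on the log2 scale. RPM1 and RPP8 were called in the opposite direction in the own comparisons, with -0.48 for K4A over HTR5 and 1.0 for sdg2 over Col for RPM1, and the call of RPM1 in the average was lost after median-of-ratios scaling and after quantile normalization. Of all annotated TIR-NBS-LRR proteins, 75 of 82 were called higher and 2 lower, with a median of 0.96 (0.73 relative to all genes), and AT5G41750 rose by 3.75. CC-NBS-LRR proteins, another class of NLR, lay nearer the background: 7 of 22, or 31.8%, were common rises against 35.7% of all genes, and 1 was of at least 2-fold, with own medians of 0.11 for K4A over HTR5 and 0.81 for sdg2 over Col.

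Among transcription factor families the WRKY family stood out by its counts. Of its tested members 57 of 62 were called higher and 1 lower, and 40, or 64.5%, rose at least 2-fold in both mutants, with a median of 1.78 (1.55 relative to all genes). WRKY53, WRKY51, WRKY40 and WRKY33, which all act in defence or leaf ageing, rose by 4.09, 4.47, 3.99 and 3.88. WRKY33, a regulator of camalexin synthesis, stood at 16.5 ± 0.124 TPM (SD, n = 3) for Col, 32.3 ± 5.69 for HTR5, 394 ± 46.5 for K4A and 318 ± 12 for sdg2. WRKY12, a factor of pith and flowering, fell by 0.60 on the log2 scale and was the 1 member called lower. VQ proteins bind WRKY factors, and of these 20 of 23 were called higher and 2 lower, with a median of 1.43 (1.21 relative to all genes).

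Of NAC factors, 46 of 65 were called higher and 11 lower, with a median of 0.91 (0.69 relative to all genes), and of ERF and DREB factors 55 of 79 were called higher and 10 lower, with a median of 0.71 (0.48 relative to all genes). ERF6, a factor of stress and leaf growth, stood at 2.82 ± 0.951 TPM (SD, n = 3) for Col, 9.51 ± 2.24 for HTR5, 88 ± 2.45 for K4A and 49.3 ± 3.08 for sdg2, so that the controls differed too, with HTR5 above Col. MYB factors went both ways, as 33 of 88 were called higher and 33 lower, with a median of -0.06 (-0.28 relative to all genes). The same was true of bHLH factors, of which 36 of 97 were called higher and 28 lower, with a median of 0.02 (-0.20 relative to all genes). That median turned to -0.20 after median-of-ratios scaling and -0.24 after quantile normalization.

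Camalexin, the main antimicrobial compound of Arabidopsis, is made from tryptophan by the cytochromes P450 CYP79B2, CYP71A12, CYP71A13 and PAD3. Of genes of this route and of indolic glucosinolate defence, 13 of 15 were called higher and 2 lower, and 12 rose at least 2-fold in both mutants, with a median of 2.85 (2.63 relative to all genes). PAD3, the final enzyme, stood at 7.6, 7.63 and 7 TPM for Col, 2.48, 1.98 and 1.91 for HTR5, 51.4, 59.1 and 60.3 for K4A and 217, 207 and 202 for sdg2. HTR5 lay below Col and K4A below sdg2, but no mutant library overlapped a control, and the average difference was 4.43 ± 0.064 (SE, adjusted p = 2.68e-17). CYP71A13 rose by 4.08 and CYP71A12, its close copy, by 4.7. CYP79B2, which opens the route, ranged over 39 to 50.5 TPM in the control libraries and 255 to 419.7 TPM in the mutant libraries, and rose by 2.85, while its paralog CYP79B3 fell by 0.52 on the log2 scale.

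The feeding steps to tryptophan, ASA1 and TSA1, rose by 2.27 and 1.86. The transporter PEN3 and the glucosidase PEN2, which act at sites of fungal entry, rose by 3.2 and 1.37. PEN3 stood at 110.1, 105 and 100.1 TPM for Col, 84, 102 and 87.4 for HTR5, 767, 745 and 711 for K4A and 1150.5, 1046 and 1126 for sdg2. MYB51, which switches on indolic glucosinolate genes, rose by 2.88, and MYB122 of the same group was at least 46.4-fold higher in mutants, with at most 3 reads in any control library. MYB34, the other member of that group, fell by 0.81 on the log2 scale. Paralogs within both the CYP79B pair and the MYB group were thus called in opposite directions.

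Aliphatic glucosinolates, mustard oil precursors made from methionine, are governed by MYB28, MYB29 and MYB76. In this pathway 1 of 20 were called higher and 19 lower, and 14 fell at least 2-fold in both mutants, with a median of -1.5 (-1.73 relative to all genes). MYB28 (AT5G61420, chromosome 5, 24689069 to 24691187) stood at 170.0, 176 and 158 TPM for Col, 117, 147 and 139 for HTR5, 30.1, 27.1 and 26.2 for K4A and 56.3, 50.8 and 56.1 for sdg2, an average difference of -1.92 ± 0.0596 (SE, adjusted p = 1.08e-13). MYB29 fell by 1.85 and MYB76 fell by 1.49 on the log2 scale. All libraries of both mutants were below all controls for MYB28 and MYB29, with the larger fall in K4A for the former and in sdg2 for the latter.

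The enzymes followed in order of the pathway. BCAT4, the first step of chain elongation, stood at 329.7, 344 and 329 TPM for Col, 289.8, 322 and 299 for HTR5, 64, 74.6 and 70.9 for K4A and 79.8, 72.1 and 74.2 for sdg2, an average difference of -2.12 ± 0.047 (SE, adjusted p = 2.16e-15). MAM1 and MAM3, which lengthen the chain and are close copies, fell by 1.46 and fell by 2.94, the latter with -4.23 for K4A over HTR5 and -1.64 for sdg2 over Col. CYP79F1 and CYP83A1, which build the core, fell by 1.89 and fell by 1.63. UGT74C1, which adds the sugar, fell by 1.51, and FMOGS-OX3, which oxidizes the side chain, fell by 2.03. SUR1, an enzyme shared with the indolic branch, was the 1 member called higher, at 0.20, but turned to -0.04 after median-of-ratios scaling, and SOT17 and SOT18, the sulfotransferases, were at -0.32 and -0.46, both called lower.

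Jasmonate, the hormone of wounding, is made through LOX, AOC and OPR3 enzymes, and its response is held back by JAZ proteins. Of these genes 19 of 22 were called higher and 2 lower, with a median of 1.3 (1.08 relative to all genes). Common rises were 13, or 59.1% against 35.7% of all genes, and 3 genes were called in opposite directions in the own comparisons. The own medians were 1.46 for K4A over HTR5 and 1.04 for sdg2 over Col, and the difference of effects was called for 19. LOX4 rose by 3.55 and LOX3 by 2.95. JAZ1, an early target and repressor, stood at 24.5, 22 and 19.4 TPM for Col, 26.8, 37.9 and 31.7 for HTR5, 382, 402 and 333 for K4A and 164, 191 and 185 for sdg2, an average difference of 3.24 ± 0.0805 (SE, adjusted p = 7.71e-15). It was high in both mutants and higher in K4A. PDF1.2, a defensin gene induced by jasmonate and ethylene together, was called lower at -1.74, but the controls were far apart, at 325 to 343 TPM in Col and 25.1 to 40.4 in HTR5.

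Of ethylene genes, 18 of 20 were called higher and 1 lower, with a median of 0.76 (0.53 relative to all genes). ACS2, an enzyme of the rate-limiting step, rose by 3.5, and ERF1, a response factor, by 2.7. The receptors ERS1 and ETR2 rose by 1.51 and 1.36, and EBF2, which removes the factor EIN3, by 1.45. Abscisic acid genes went both ways, as 13 of 20 were called higher and 7 lower, with a median of 0.30 (0.08 relative to all genes). Common rises made up 35% of them and common falls 35%, against 35.7% and 15.3% of all genes. RD29A, a gene of drought and cold, rose by 1.75, and KIN1 and KIN2, of the same responses, fell by 1.51 and fell by 1.24 on the log2 scale.

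Genes for folding proteins in the endoplasmic reticulum, where secreted proteins are made, were higher almost throughout. Of these genes 20 of 20 were called higher and 0 lower, with a median of 1.1 (0.87 relative to all genes). Common rises were 19, or 95% against 35.7% of all genes. For 19 all mutant libraries lay above all control libraries, which held for 32.1% of all genes. BIP3, the stress-induced form of the main chaperone, stood at 2.86, 2.39 and 2.46 TPM for Col, 3.93, 2.88 and 2.78 for HTR5, 18.3, 19.9 and 18.8 for K4A and 18.9, 20.7 and 17.2 for sdg2, an average difference of 2.37 ± 0.087 (SE, adjusted p = 7.93e-13). BIP1 and BIP2, the constitutive and near-identical forms, rose by 1.06 and 0.93. The disulfide isomerases PDIL1-1 and PDIL1-2 rose by 1.76 and 2.2, and CRT3, a calreticulin needed for an immune receptor, by 2.07. BZIP60, the factor activated by the sensor IRE1, rose by 1.51. IRE1B was not called in K4A against HTR5, at 0.11.

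Heat shock genes were mostly higher, as 17 of 18 were called higher and 0 lower, with a median of 1.2 (0.98 relative to all genes). The mutants were unequal, with own medians of 1.56 for K4A over HTR5 and 0.52 for sdg2 over Col. For all genes these were 0.14 and 0.31. Of the 18, 5 rose at least 2-fold in both mutants, and the difference of effects was called for 10. HSP90.1, the inducible cytosolic chaperone, stood at 23.3, 23 and 23.9 TPM for Col, 22.1, 32.1 and 24 for HTR5, 139.7, 132 and 127 for K4A and 90.7, 106 and 89.5 for sdg2, an average difference of 2.15 ± 0.0758 (SE, adjusted p = 5.04e-13). The factor HSFB1 rose by 1.81 and HSFA2 by 1.92, the latter by 2.45 for K4A over HTR5 and 1.38 for sdg2 over Col. The families taken from the annotation lay nearer the background. Of HSP20 chaperones 16 of 30 were called higher and 7 lower, with a median of 0.31 (0.09 relative to all genes), and 33.3% were common rises against 35.7% of all genes, while of DnaJ proteins 65 of 111 were called higher and 18 lower, with a median of 0.31 (0.09 relative to all genes). Of autophagy genes 18 of 24 were called higher and 3 lower, with a median of 0.69 (0.47 relative to all genes), and NBR1, the receptor for aggregated cargo, rose by 1.5. Common rises made up 70.8% of the autophagy genes against 35.7% of all genes. Of proteasome subunits 33 of 38 were called higher and 1 lower, by small amounts, with a median of 0.38 (0.16 relative to all genes). For 25 of the 38 all mutant libraries lay above all control libraries, which held for 32.1% of all genes. Cytosolic ribosomal proteins went both ways, as 23 of 64 were called higher and 27 lower, with a median of -0.08 (-0.30 relative to all genes).

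Oxidative stress genes were mostly higher, as 14 of 16 were called higher and 2 lower, with a median of 1.18 (0.95 relative to all genes). BCS1, a mitochondrial ATPase induced by salicylic acid, stood at 10.7, 9.89 and 10.5 TPM for Col, 19.9, 25.1 and 22.5 for HTR5, 253, 250.4 and 232 for K4A and 204, 208 and 222 for sdg2, an average difference of 3.81 ± 0.055 (SE, adjusted p = 2.68e-17). AOX1A, the general alternative oxidase, rose by 1.62, and the zinc finger factor ZAT10 by 2.81. FSD1, the chloroplast iron superoxide dismutase, fell by 1.33, and NDA1, a mitochondrial dehydrogenase under light and clock control, fell by 1.8 on the log2 scale. Of the tau and phi glutathione S-transferases 18 of 29 were called higher and 8 lower, with a median of 0.92 (0.69 relative to all genes). GSTU4 stood at 7.27 ± 1.2 TPM (SD, n = 3) for Col, 5.22 ± 1.27 for HTR5, 96.1 ± 5.58 for K4A and 118 ± 2.47 for sdg2 and GSTU20, which serves glucosinolate synthesis, at 848 ± 17.7 TPM (SD, n = 3) for Col, 865 ± 45.3 for HTR5, 368 ± 32.7 for K4A and 373 ± 12 for sdg2.

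Of the berberine bridge enzyme-like oxidases 12 of 22 were called higher and 8 lower, and 8 rose at least 2-fold in both mutants, with a median of 0.63 (0.41 relative to all genes). The share called higher, 54.5%, was near the 52.5% of all genes, but 36.4% rose at least 2-fold in both against 8.97% of all genes. AT1G26380 and AT1G26420, which neighbour the oxidase genes named above on chromosome 1, also rose, by 4.74 and 4.34. AT1G26380 makes a cyanogenic indole compound in defence. Class III peroxidases, which act in the cell wall, went both ways, as 24 of 44 were called higher and 16 lower, with a median of 0.63 (0.41 relative to all genes). Their share called higher was likewise 54.5% against 52.5%, and 29.5% rose at least 2-fold in both mutants against 8.97%. PRXCB, a peroxidase of the oxidative burst, stood at 101 ± 1.55 TPM (SD, n = 3) for Col, 63.6 ± 4.38 for HTR5, 1959 ± 187 for K4A and 1614 ± 105 for sdg2.

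Leaf ageing brings breakdown of chlorophyll by NYC1, NYE1, PPH and PAO under factors such as ORE1. Of senescence genes 13 of 15 were called higher and 1 lower, and 9 rose at least 2-fold in both mutants, with a median of 1.75 (1.53 relative to all genes). SAG13, an early marker, stood at 56.9, 53.5 and 52.9 TPM for Col, 27.7, 26.1 and 31.2 for HTR5, 808, 761 and 818 for K4A and 714, 681 and 730.0 for sdg2, an average difference of 4.22 ± 0.0468 (SE, adjusted p = 2.22e-18). HTR5 was below Col, and all mutant libraries were far above both. NYC1 rose by 1.75, PAO by 1.32, NYE1 by 0.58 and PPH by 0.75. ORE1 stood at 12.6, 11.9 and 10.7 TPM for Col, 12.3, 17.3 and 13.8 for HTR5, 84.9, 95.7 and 95.4 for K4A and 74.6, 74.4 and 71.2 for sdg2, an average difference of 2.57 ± 0.0728 (SE, adjusted p = 3.67e-14). SAG12, the late marker, rose by 2.76 but stood at 48 to 58.6 TPM in Col and 9.49 to 11 in HTR5, and SEN4 was called lower at -0.41.

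**Figure D3:**
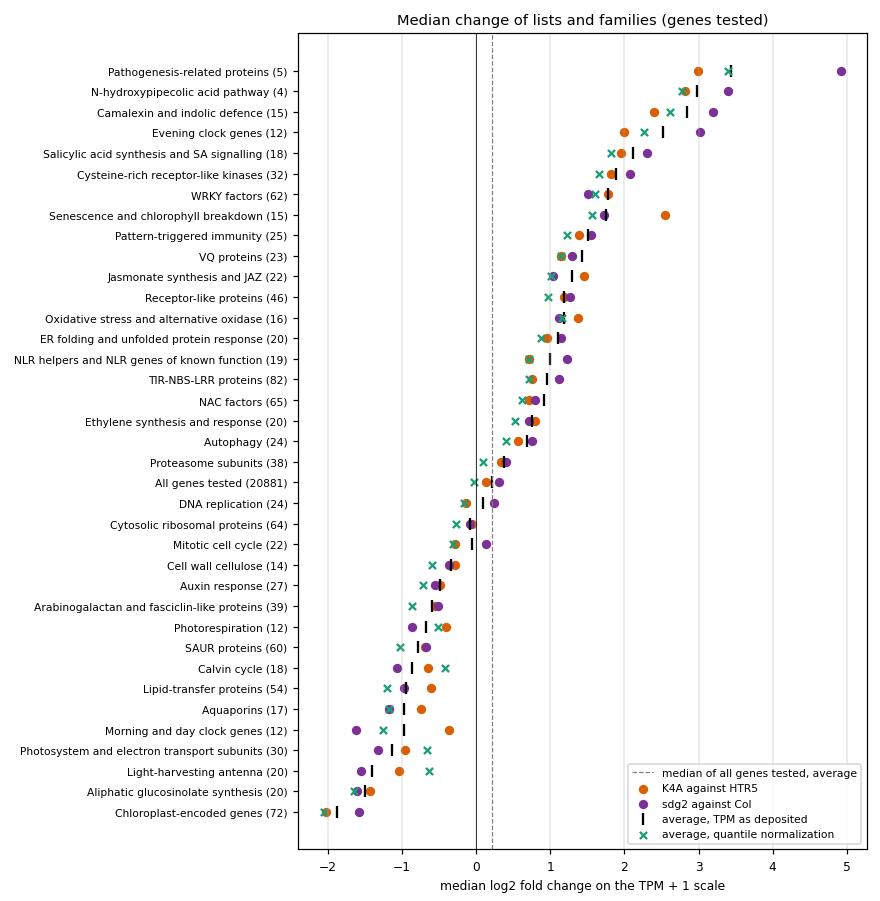
For each list or family (number of genes tested in brackets, y axis), the points give the median log2 fold change on the TPM + 1 scale, x axis, for K4A over HTR5, for sdg2 over Col and in the average with TPM as deposited or after quantile normalization. Defence lists lie at the right of the dashed all-gene median of 0.22 and photosynthesis, glucosinolate and chloroplast-encoded genes at the left; quantile normalization brings the medians of antenna, photosystem and Calvin cycle genes nearer to 0.

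Photosynthesis genes of the nucleus fell together. The light-harvesting antenna proteins bind chlorophyll around the photosystems, and of their genes 0 of 20 were called higher and 20 lower, 19 in common and 12 by at least 2-fold in both mutants. The median was -1.4 (-1.63 relative to all genes), and it was -0.63 after quantile normalization, which draws the highest genes of all libraries to the same values and leaves 17 of 20 members below 0. LHCB2.3, an antenna protein of photosystem II, stood at 1263, 1281 and 1283 TPM for Col, 1289, 951 and 1295 for HTR5, 129, 145 and 157 for K4A and 77.5, 79 and 74 for sdg2, an average difference of -3.53 ± 0.0701 (SE, adjusted p = 6.21e-16). All mutant libraries lay below all controls, and those of sdg2 were lowest. LHCB2.2 fell by 2.21 and LHCB3 fell by 1.78 on the log2 scale. In HTR5 replicate 2 the mean of the list lay at -0.40 relative to the control mean, against 0.05 to 0.11 in the other controls and -1.59 to -1.21 in mutants, and the median without that library was -1.47. The smallest changes were those of LHCB4.1, at -0.39 but 0.66 after quantile normalization, and LHCB1.3, at -0.53 but 0.00 under it. The LHCB1 genes are near-identical, so their single values are uncertain.

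Of subunits of the photosystems and electron carriers, 0 of 30 were called higher and 29 lower, with a median of -1.13 (-1.35 relative to all genes) and -0.66 after quantile normalization, with 24 of 30 below 0 there. PSAK, a subunit of photosystem I at the antenna side, stood at 2716, 2678 and 2863 TPM for Col, 2913, 2275 and 2901 for HTR5, 504, 484 and 560.5 for K4A and 230.1, 203 and 244 for sdg2, an average difference of -2.99 ± 0.0666 (SE, adjusted p = 2.22e-15). PSAG, PSBX and PSAO fell by 2.68, fell by 2.6 and fell by 2.39 on the log2 scale. FNR1, the reductase at the end of electron transport, was at -0.10, and PSBY of photosystem II at -0.12, but they stood at 0.05 and 0.43 after quantile normalization.

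In the Calvin cycle, which fixes carbon dioxide, 0 of 18 were called higher and 17 lower, with a median of -0.86 (-1.08 relative to all genes) and -0.42 after quantile normalization, with 15 of 18 below 0 there. RCA, the activase of Rubisco, stood at 8085, 8038 and 8185 TPM for Col, 7689, 6829.8 and 7678 for HTR5, 4091, 3747 and 3865 for K4A and 1898, 2014 and 1802 for sdg2, an average difference of -1.51 ± 0.0501 (SE, adjusted p = 2.50e-13), and the fall was larger in sdg2. The small subunit gene RBCS1B fell by 2.11, and RBCS1A was called lower at -1.22 but stood at 0.00 after quantile normalization, and these copies may share reads. All 12 photorespiration genes tested were called lower, with a median of -0.68 (-0.91 relative to all genes), though CAT2, the catalase of this route, went in opposite directions with 0.22 for K4A over HTR5 and -1.44 for sdg2 over Col. Chlorophyll synthesis went both ways, as 7 of 21 were called higher and 14 lower, with a median of -0.27 (-0.49 relative to all genes). The share called lower was 66.7% against 26.1% of all genes. Common falls made up 33.3% and common rises 28.6%, against 15.3% and 35.7% of all genes. CAO, which makes chlorophyll b, fell by 1.11 and PORB, a light-dependent reductase, rose by 1.67. Of chloroplast regulators 4 of 18 were called higher and 9 lower, but 5 were common falls and 5 were called in opposite directions, with own medians of -0.05 for K4A over HTR5 and -0.73 for sdg2 over Col. Among them GLK1 and GLK2, factors that switch on antenna genes, fell by 0.73 and fell by 1.31, and GNC, another chloroplast regulator, fell by 1.11.

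Genes encoded in the chloroplast itself were lower as well, as 0 of 72 were called higher and 70 lower, with a median of -1.87 (-2.1 relative to all genes). Of the 72, 52 fell at least 2-fold in both mutants, or 72.2% against 4.16% of all genes. For 57 all mutant libraries lay below all control libraries, which held for 13.6% of all genes. The own medians of the chloroplast-encoded genes were -2.03 for K4A over HTR5 and -1.58 for sdg2 over Col. The share of TPM they held parts controls from mutants as depth does, HTR5 replicate 2 was the highest library, the median without it was -1.68, and whether the libraries selected polyadenylated RNA is not given in the sources used here. The part of library preparation in this fall was not tested. Of mitochondrion-encoded genes 19 of 41 were called higher and 2 lower, with a median of 0.27 (0.05 relative to all genes). Their share called higher, 46.3%, was below the 52.5% of all genes.

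**Figure D4:**
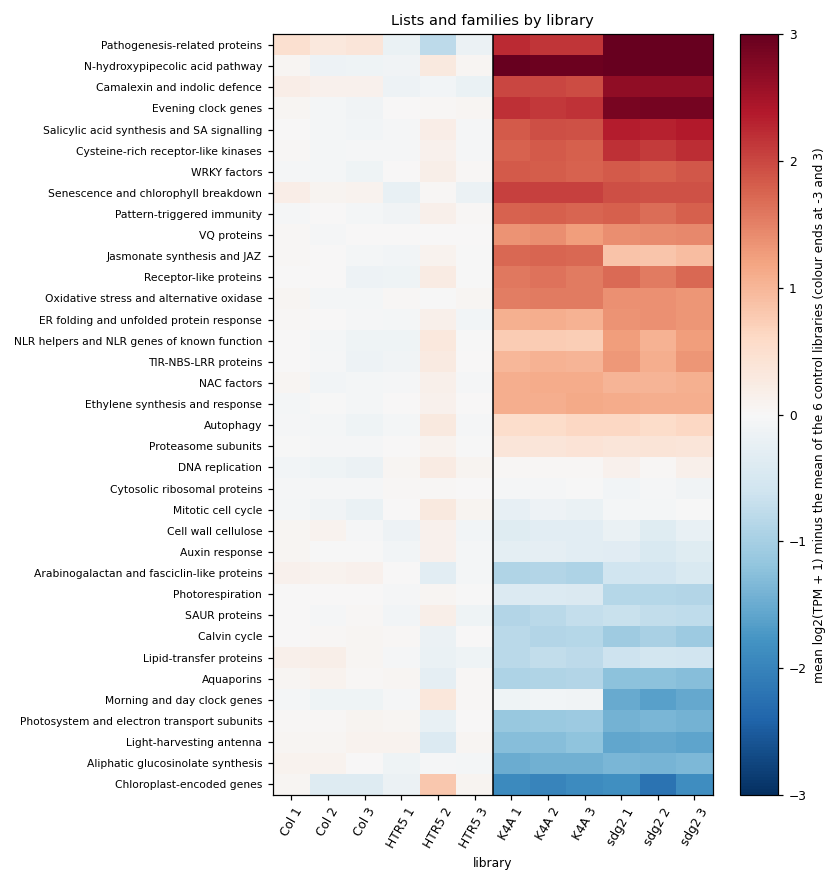
Rows are lists and families, columns the 12 libraries, and the colour is the mean log2(TPM + 1) of the tested members minus its mean over the 6 control libraries, with the colour scale ending at -3 and 3. The mutant libraries are red for defence lists and blue for photosynthesis lists, and the chloroplast-encoded genes spread most within a group, from -0.18 to 0.82 in HTR5, where replicate 2 was highest.

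Several families of cell growth and the wall were mostly lower, and others were not. SAUR proteins are small auxin-induced proteins that promote cell expansion, and of these 10 of 60 were called higher and 40 lower, 20 by at least 2-fold in both mutants, with a median of -0.78 (-1.0 relative to all genes). SAUR24 stood at 46.2 ± 1.31 TPM (SD, n = 3) for Col, 38.7 ± 4.96 for HTR5, 5.28 ± 1.46 for K4A and 6.3 ± 0.695 for sdg2, and it belongs to a group of close copies. Of Aux/IAA and other auxin response genes, 8 of 27 were called higher and 16 lower, with a median of -0.49 (-0.71 relative to all genes). IAA14, a repressor of auxin response, stood at 16.2, 16.2 and 16.6 TPM for Col, 15.5, 17.5 and 14.3 for HTR5, 5, 3.38 and 5.99 for K4A and 2.58, 2.63 and 3.2 for sdg2, an average difference of -1.88 ± 0.105 (SE, adjusted p = 1.56e-10). IAA17 and IAA29 fell by 1.34 and fell by 1.56 on the log2 scale. GH3.3, which joins auxin to amino acids, rose by 2.42, and ARF7, an auxin response factor, rose by 1.15.

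Expansins, which loosen the wall, had 3 genes called higher and 16 lower of 23, with a median of -0.50 (-0.73 relative to all genes). Common falls were 9, or 39.1% against 15.3% of all genes. In the own comparisons 4 expansins were called in opposite directions, and the controls differed from each other for 7. EXPA8 stood at 116 ± 0.808 TPM (SD, n = 3) for Col, 74 ± 8.85 for HTR5, 14 ± 0.458 for K4A and 42.6 ± 2.05 for sdg2. Of the cellulose genes 1 of 14 were called higher and 11 lower, with a median of -0.34 (-0.56 relative to all genes), and the primary wall synthase CESA5 fell by 0.74 on the log2 scale. Of arabinogalactan and fasciclin-like proteins 8 of 39 were called higher and 28 lower, with a median of -0.59 (-0.82 relative to all genes). Among them 18 were common falls, or 46.2%, and 4 were called in opposite directions. Of lipid-transfer proteins 14 of 54 were called higher and 35 lower, with a median of -0.94 (-1.17 relative to all genes), and 19 fell and 8 rose at least 2-fold in both mutants. Pectin methylesterases and their inhibitors, which set the stiffness of the wall, had 15 common rises and 13 common falls of 66, 16 called in opposite directions and own medians of -0.51 for K4A over HTR5 and 0.36 for sdg2 over Col. Of pectin lyases 14 of 60 were called higher and 39 lower, with a median of -0.41 (-0.64 relative to all genes) but own medians of -0.39 for K4A over HTR5 and 0.02 for sdg2 over Col. Of xyloglucan endotransglucosylases, which cut and rejoin wall chains, 7 of 20 were called higher and 11 lower, with a median of -0.38 (-0.60 relative to all genes), and 5 were called in opposite directions.

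Aquaporins are water channels, and 2 of 17 were called higher and 14 lower, with a median of -0.97 (-1.2 relative to all genes). PIP2B, a channel of the plasma membrane, stood at 208, 216 and 204 TPM for Col, 196, 149 and 183 for HTR5, 29.3, 32.3 and 32.1 for K4A and 31.6, 28.6 and 30.1 for sdg2, an average difference of -2.6 ± 0.0607 (SE, adjusted p = 3.79e-15). TIP2;2 and TIP2;1, channels of the vacuole, fell by 2.21 and fell by 1.92 on the log2 scale. PIP1;4 and PIP2;5 were called higher, at 0.21 and 0.27, but turned to -0.03 for PIP1;4 after median-of-ratios scaling and to -0.01 for PIP2;5 after quantile normalization. Brassinosteroid genes, which also serve cell growth, had 4 members called higher and 7 lower of 12, with a median of -0.46 (-0.69 relative to all genes), and the synthesis genes DWF4 and BR6OX2 fell by 0.54 and fell by 0.85.

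**Figure D5:**
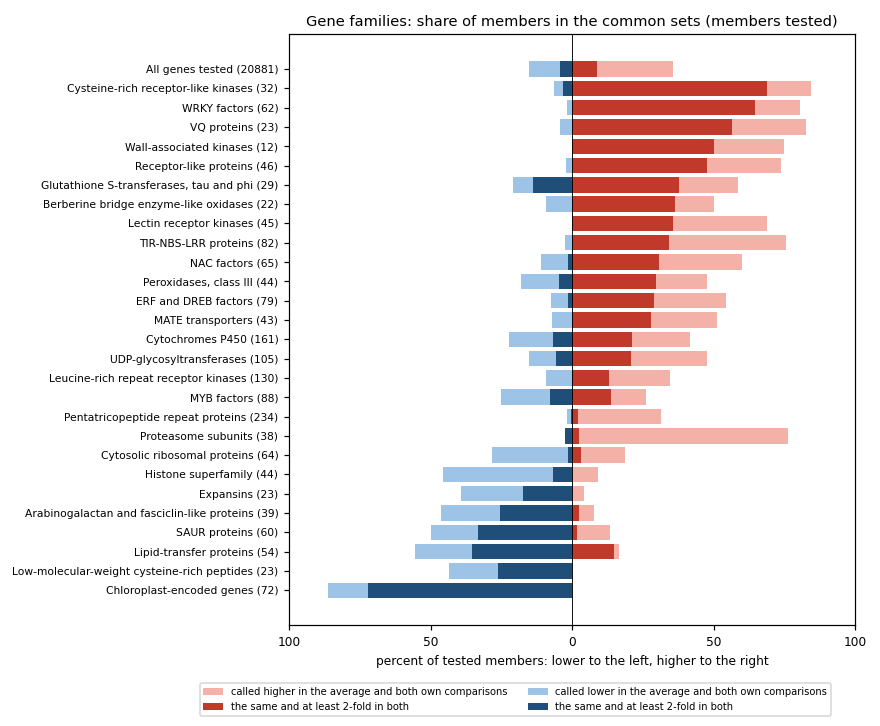
For each gene family (members tested in brackets, y axis), bars give the percent of tested members, x axis, that were common to both mutants, with rises to the right and falls to the left; dark bars are those of at least 2-fold in both. Among all genes the dark bars are 8.97% and 4.16%, and they are longest to the right for cysteine-rich receptor-like kinases and WRKY factors and to the left for chloroplast-encoded genes.

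The circadian clock of plants runs through genes that peak at dawn and genes that peak at dusk, which repress each other. Of the evening genes, 10 of 12 were called higher and 0 lower, and 9 rose at least 2-fold in both mutants, with a median of 2.52 (2.3 relative to all genes). FKF1 (AT1G68050, chromosome 1, 25508639 to 25510907), a blue light receptor that times flowering, stood at 0.414, 0.208 and 0.139 TPM for Col, 0.331, 0.297 and 0.55 for HTR5, 33.4, 27.4 and 27.8 for K4A and 81.5, 87.3 and 83.6 for sdg2. It was under 1 TPM in all control libraries and highest in sdg2, with an average difference of 5.27 ± 0.0871 (SE, adjusted p = 9.35e-17). PRR5, a repressor of dawn genes, stood at 1.74, 1.01 and 1.01 TPM for Col, 1.92, 2.45 and 2.26 for HTR5, 56.3, 51.6 and 52 for K4A and 123, 127 and 129 for sdg2, an average difference of 4.96 ± 0.0833 (SE, adjusted p = 1.08e-16). ELF4 and LUX, parts of the evening complex, rose by 4.34 and 2.91, and GI, which stabilizes the receptor ZTL, rose by 1.97.

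LKP2 and CHE were not called, at 0.10 and -0.16, but were called lower after median-of-ratios scaling and after quantile normalization. The evening element (AAAATATCT on either strand), to which dawn factors bind, lay in 5 of 12 windows of evening genes, in 0 of 12 of morning genes and in 2.55% of all windows. It was held by 4.59% of the windows of strong common rises and 1.72% of those of strong common falls. The windows of FKF1 (chr1:25508389-25508638, plus strand), PRR5 (chr5:8358547-8358796, minus strand) and TOC1 (chr5:24674713-24674962, plus strand), another dusk repressor, are shown with the element in capitals, read here as its reverse complement AGATATTTT. The match starts 186, 187 and 151 bases ahead of the gene.
FKF1: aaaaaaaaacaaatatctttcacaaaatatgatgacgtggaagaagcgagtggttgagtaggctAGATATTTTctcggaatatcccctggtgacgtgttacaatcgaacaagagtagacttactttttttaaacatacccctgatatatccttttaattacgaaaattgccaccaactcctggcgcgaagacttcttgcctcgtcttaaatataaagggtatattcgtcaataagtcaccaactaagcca
PRR5: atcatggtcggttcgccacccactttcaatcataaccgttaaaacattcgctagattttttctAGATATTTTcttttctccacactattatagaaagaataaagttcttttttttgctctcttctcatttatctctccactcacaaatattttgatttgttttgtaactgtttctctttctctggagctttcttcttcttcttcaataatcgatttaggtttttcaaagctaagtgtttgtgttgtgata
TOC1: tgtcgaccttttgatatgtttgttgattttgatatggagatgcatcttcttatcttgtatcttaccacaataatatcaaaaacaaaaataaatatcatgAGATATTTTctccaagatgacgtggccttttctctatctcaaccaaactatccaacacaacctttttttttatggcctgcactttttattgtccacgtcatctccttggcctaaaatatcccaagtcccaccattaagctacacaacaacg

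Of the morning and day genes, 1 of 12 were called higher and 9 lower, with a median of -0.97 (-1.19 relative to all genes). Here the mutants were unequal, with own medians of -0.36 for K4A over HTR5 and -1.62 for sdg2 over Col, and the difference of effects was called for 10. LNK2, a coactivator of dawn factors, stood at 369, 353 and 338 TPM for Col, 359, 465 and 407 for HTR5, 245, 244 and 239.7 for K4A and 78.5, 75.3 and 80 for sdg2, an average difference of -1.46 ± 0.0535 (SE, adjusted p = 8.21e-13). LHY, a dawn repressor, stood at a change of -0.39 for K4A over HTR5 and -3.52 for sdg2 over Col, and RVE1, a related factor, at 0.02 for K4A over HTR5 and -2.3 for sdg2 over Col, of which the first value was not called for RVE1. Because the hour of harvest is not given, the part of the time of day in these values was not tested.

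Starch genes, many of them under clock control, had 20 members called higher and 5 lower of 28, with a median of 0.72 (0.50 relative to all genes). SEX1, which phosphorylates starch for breakdown at night, stood at 35.4, 36.3 and 33.2 TPM for Col, 34.6, 44.8 and 34.9 for HTR5, 97.9, 102 and 95.2 for K4A and 174, 146 and 168 for sdg2, an average difference of 1.77 ± 0.0658 (SE, adjusted p = 9.58e-13). PHS2 and ISA3, which also break down glucans, rose by 2.05 and 2.14, both more in sdg2. GPT2, which brings sugar phosphate into plastids, rose by 3.92. Of genes induced by sugar starvation or darkness 14 of 16 were called higher and 0 lower, with a median of 0.84 (0.61 relative to all genes), among them BCAT2 and GDH2 of amino acid breakdown, at 1.73 and 1.45. Called in opposite directions in the own comparisons were 5 of the list, ASN1, an asparagine synthetase, with 1.57 for K4A over HTR5 and -0.41 for sdg2 over Col.

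Several lists lay near the background by their medians, though not always by their calls. Genes for H3K4 methyltransferases and their partners, SDG2 among them, had a median of 0.27 (0.05 relative to all genes). In the average 9 of 11 were called higher and 0 lower, and 2 of 11 were common rises, but 4 stood below 0 after median-of-ratios scaling. H3K4 demethylase genes had a median of 0.30 (0.08 relative to all genes), with 7 of 9 called higher and 0 lower. Common rises made up 55.6% of them against 35.7% of all genes. Polycomb genes, which place repressive marks, had a median of 0.45 (0.22 relative to all genes), with 45% common rises. RING1B, a Polycomb ubiquitin ligase, rose by 1.66. DNA replication genes had a median of 0.10 (-0.13 relative to all genes), with the sign turning under the scalings, and 3 common rises and 1 common fall of 24. Mitotic genes had a median of -0.06 (-0.28 relative to all genes), but fewer were called higher, 9.09% against 52.5% of all genes. Of the 22 tested, 7 were called lower, 0 were common rises and 2 were common falls. After median-of-ratios scaling 21 of the 22 stood below 0. Histone genes were called lower more often than all genes. Of the H3.1 genes, used in replication and near-identical, 0 of 5 were called higher and 4 lower, with a median of -0.42 (-0.64 relative to all genes). Of these genes 2 were common falls, and 0 lay lower without overlap between mutants and controls. Their mean log2(TPM + 1) was 5.92 for Col, 6.45 for HTR5, 6.06 for K4A and 5.37 for sdg2. Of the whole histone superfamily 8 of 44 were called higher and 26 lower, with a median of -0.30 (-0.52 relative to all genes). Common falls made up 45.5% against 15.3% of all genes, while HTR5 differed from Col for 26. For 7 of the 44 all mutant libraries lay below all control libraries, which held for 13.6% of all genes. The mean log2(TPM + 1) of the superfamily was 5.77 for Col, 6.08 for HTR5, 5.91 for K4A and 5.33 for sdg2. In both sets K4A thus lay below HTR5 but above Col.

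Of pentatricopeptide repeat proteins, which process RNA in organelles, 144 of 234 were called higher and 15 lower, with a median of 0.40 (0.17 relative to all genes) and 88 below 0 after median-of-ratios scaling. Their common rises, at 31.6%, and those of at least 2-fold, at 2.14%, were no more frequent than among all genes, and the own medians were 0.10 for K4A over HTR5 and 0.60 for sdg2 over Col, against 0.14 for K4A over HTR5 and 0.31 for sdg2 over Col for all genes. Of low-molecular-weight cysteine-rich peptides, 0 of 23 were called higher and 22 lower, with a median of -0.94 (-1.16 relative to all genes), and 26.1% fell at least 2-fold in both mutants against 4.16% of all genes. The controls differed from each other for 11 of them, with a mean log2(TPM + 1) of 2.33 for Col, 1.55 for HTR5, 0.58 for K4A and 0.94 for sdg2.

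Flavonoid and anthocyanin genes were unequal between the mutants. In the average 2 of 21 were called higher and 13 lower, but 4 were common falls, and 5 were called in opposite directions in the own comparisons. DFR, which makes anthocyanin precursors, stood at -0.15 for K4A over HTR5 and -2.27 for sdg2 over Col. PAP1, a factor that switches the pathway on, and TT19, which carries the product, fell in both, at -0.97 for K4A over HTR5 and -2.1 for sdg2 over Col for PAP1. Cytokinin response genes had a median of 0.12 (-0.10 relative to all genes), and the sign turned after median-of-ratios scaling, to -0.10, and after quantile normalization, to -0.14.

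Markers of other cell types were read beside these lists, since seedlings mix tissues. Pollen markers were lowest in K4A: the summed TPM of 11 markers was 277 to 380.1 for Col, 209 to 265 for HTR5, 12.8 to 18.2 for K4A and 395 to 460.4 for sdg2. Of the 11, 5 were called in opposite directions in the own comparisons, so the average of these genes is no common change, with -4.55 for K4A over HTR5 and 0.62 for sdg2 over Col for VGD1, a pectin enzyme of the pollen tube. AGP23 was the 1 marker called lower in both. Root markers summed to 87.2 to 93.5 TPM in controls and 78.5 to 105 in mutants, and 2 of 10 were at 0 in every control library. Guard cell markers summed to 52.4 to 73.2 TPM in controls, 53.4 to 58.7 in K4A and 79.6 to 84.6 in sdg2.

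Seed markers summed to 0.663 to 1.69 TPM in controls and 2.32 to 5.7 in mutants, with 2 of 8 at 0 in every control library. Trichome markers summed to 21.5 to 25.7 TPM in controls and 9.87 to 12 in mutants, and of the 3 tested TRY, a repressor of trichome fate, was the 1 called lower. TRY stood at 19.8, 19 and 17.2 TPM for Col, 17.1, 21.8 and 17.9 for HTR5, 1.94, 3.05 and 2.36 for K4A and 3.56, 2.92 and 3.49 for sdg2, while GL2, a factor of the trichome cell, rose by 0.77. Epidermis markers summed to 363 to 388 TPM for Col, 498 to 509 for HTR5, 736 to 941 for K4A and 460.1 to 508 for sdg2. Companion cell markers of the phloem summed to 397 to 408, 325 to 367, 247 to 272 and 338 to 364 TPM in the same order. No listed marker of pollen, guard cells, trichomes, companion cells or epidermis was at 0 in every library of the controls or of the mutants. The part of tissue make-up in the changes above was not tested.

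The own changes often differed in size. Of all genes tested, 903 were called in opposite directions in the own comparisons; the common sets hold none of these by their definition. The difference of effects was called for 40.7% of all genes tested, for 50.1% of the 1873 strong rises and for 34% of the 868 strong falls. Among the strong rises with such a difference, the change was larger in K4A for 401 and in sdg2 for 538, and among the strong falls for 141 and 154. The median log2 change of the strong rises was 1.84 for K4A over HTR5 and 1.87 for sdg2 over Col, and that of the strong falls -1.61 and -1.59. Larger rises in sdg2 included DLO1, FMO1, PR2 and the evening gene PRR5, and larger rises in K4A included JAZ1, LOX3, HSFA2 and AT1G30700. The difference of effects, K4A against HTR5 minus sdg2 against Col, was -2.61 for DLO1, -2.65 for FMO1, 1.66 for LOX3 and 2.16 for AT1G30700. The controls differed from each other for 19.3% of the strong rises and 13.8% of the strong falls, against 9.28% of all genes tested.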

How the data were processed

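RNA of 12 seedling libraries, 3 in each of 4 groups, was measured by the authors, who deposited TPM values, 1 column per library. Per the submitters' processing notes, build TAIR10, fastp 0.20.1, HISAT2 and DESeq2 1.26.0 are named without role. The counting tool, the annotation and the use of strand are not given in the sources used here. The last sdg2 column is headed as counts but sums like the deposited TPM columns. From the TPM steps, whole reads were recovered (99.98 to 100% of values under 50 reads were whole within 0.02), giving 13718753 to 30364749 reads per library. Intervals of depth cover counting error only.

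Genes with at least 1 TPM in at least 3 libraries were fitted with limma 3.58.1 (R 4.3.3) on log2(TPM + 1) over all 12 libraries, with a mean-variance trend and Benjamini-Hochberg adjustment over 20881 genes. A fold change on this scale understates the change of low genes. All p-values with SE in the text are from this fit and two-sided. The average contrast weighs both mutants and both controls equally. Named genes were the 12 per direction with the largest smaller own change among common genes without overlap and a mean of at least 5 TPM in mutants or controls. Members and lists were chosen with earlier results of these data known. Families were taken from RefSeq TAIR10.1 product names, and symbols were matched through the same annotation, where 210 of the 27655 genes had no entry.

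Replicate numbers did not pair the libraries. Alternatives were pseudocounts of 0.1 and 0.5, no filter, a filter at a mean of 5 TPM, median-of-ratios scaling, quantile normalization, a replicate block, no trend, a threshold of 0.01, leaving out each library, and limma-voom on the recovered reads. The fit was tested on simulated data.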

Additional observations from a re-analysis of the deposited data

Results flagged for a closer look

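For 115 of the 204 genes named above and tested, limma called the difference of effects, K4A against HTR5 minus sdg2 against Col, at an adjusted p under 0.05, as it did for 40.7% of all genes tested. Each value is that difference on the log2(TPM + 1) scale, with 3 libraries a group, and is negative where K4A changed less upward or more downward. Groups of 3 were not tested for a library far from the others; HTR5 replicate 2, described above, stood apart.

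Among genes that rose in both mutants, those with the larger rise in sdg2 were ABCG40 at -0.75, ADR1-L1 at -0.51, ALD1 at -1.69, ARF7 at -0.47, AT2G18690 at -0.48, BAK1 at -0.30, BCS1 at -0.83, BIP1 at -0.33, BIP2 at -0.28 and CBP60G at -0.46. Further such genes were CRK7 at -1.9, CRT3 at -1.0, CYP71A12 at -0.75, CYP79B2 at -0.69, DLO1 at -2.61, DMR6 at -0.98, ERF6 at -0.64, FKF1 at -1.64, FMO1 at -2.65 and FRK1 at -0.74. The same held for GI at -1.31, GPT2 at -1.09, ICS1 at -0.99, ISA3 at -1.7, LUX at -0.91, MPK3 at -0.35, MYB51 at -0.97, NPR1 at -0.32, NPR4 at -0.98 and PAD3 at -0.43. To this set belonged PBS3 at -0.40, PDIL1-1 at -0.35, PDIL1-2 at -0.39, PEN3 at -0.38, PHS2 at -1.26, PORB at -1.04, PR2 at -2.03, PR5 at -2.95, PRR5 at -1.75 and RPP4 at -0.64. The set also held SARD1 at -0.82, SEX1 at -0.83, SNC1 at -0.48, SOBIR1 at -0.58, TSA1 at -0.55, WAK3 at -1.74, WRKY33 at -0.61, WRKY51 at -1.01, WRKY53 at -1.31 and ZAT10 at -0.88.

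Genes that rose in both with the larger rise in K4A were AOX1A at 0.40, AOX1D at 1.19, AT1G13520 at 0.60, AT1G26380 at 0.60, AT1G26390 at 0.90, AT1G30700 at 2.16, BIK1 at 0.69, GDH2 at 0.71, GLP9 at 0.60 and HSFA2 at 1.07. Further such genes were JAZ1 at 0.52, LOX3 at 1.66, LOX4 at 1.16, PR3 at 1.16, PRXCB at 0.94, RBOHD at 0.51, RING1B at 1.01, RLP28 at 1.21, SAG12 at 1.36 and SAG13 at 1.09. Each rise is against the own control, so a difference can also come from the controls. For AT1G26390 and AOX1D, K4A against sdg2 was not called, at -0.15 and -0.22, while HTR5 against Col was called, at -1.05 and -1.41. For AT1G30700 both were called, at 0.67 and -1.49.

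Genes that fell in both with the larger fall in sdg2 were AT4G33666 at 0.69, AT5G48490 at 1.13, CAO at 0.35, FSD1 at 0.25, IAA14 at 0.64, IAA17 at 0.63, LHCB2.2 at 0.89, LHCB2.3 at 1.02, LHCB3 at 0.45 and LHY at 3.14. Further such genes were LNK2 at 1.42, MYB29 at 0.97, MYB34 at 0.69, NDA1 at 0.97, PAP1 at 1.13, PDF1.2 at 0.59, PSAK at 1.23, PSAO at 0.29, PSBX at 0.69 and RBCS1A at 0.46. The same held for RBCS1B at 0.31, RCA at 1.17 and SOT18 at 0.27.

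Genes that fell in both with the larger fall in K4A were AT3G07450 at -0.86, ATCG00020 at -0.99, CYP79F1 at -0.27, EXPA8 at -0.90, GNC at -0.55, IAA29 at -0.99, MAM3 at -2.59 and MYB28 at -0.62.

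Genes called in opposite directions in the own comparisons were ASN1 at 1.98, CAT2 at 1.66, RPM1 at -1.48 and VGD1 at -5.18.

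Genes called in 1 own comparison or neither were DFR at 2.12, EPS1 at 0.50, IRE1B at -0.55, PEPR1 at 0.93, PIP1;4 at 0.45, PSBY at 0.63, RVE1 at 2.32, SDG2 at -2.7, SEN4 at 0.54 and SOT17 at 0.33.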

How the results depend on the processing

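The count of genes called in the average (16413) ranged from 13379 to 17529 over the alternatives, that of common genes (10650) from 8869 to 11812 and that of strong common genes (2741) from 2250 to 3570, all within 1.5 times the count given. The strong falls alone (868) reached 1419 with limma-voom, over 1.5 times that count. Leaving out 1 library gave 15951 to 17128, 9965 to 11812 and 2708 to 2808 genes, the highest of each without HTR5 replicate 2. With the replicate block the counts were 16288, 10460 and 2743. Same-numbered libraries of different groups had deviations correlated at -0.136 to 0.07, so that the numbers are only names. With limma-voom on the recovered reads, chosen after seeing the data, the counts were 16241, 10425 and 3440.

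Of the list medians, that of cytokinin response turned to -0.10 (median-of-ratios), -0.14 (quantile) and -0.02 (limma-voom). The median of DNA replication turned to -0.02 (mean of at least 5 TPM), -0.13 (median-of-ratios), -0.16 (quantile) and -0.05 (limma-voom).
Quantile normalization turned leucine-rich repeat receptor kinases to -0.03. Of named genes, it turned EPS1 to -0.17, FNR1 to 0.05, LHCB1.3 to 0.00, LHCB4.1 to 0.66, LKP2 to -0.17, PIP2;5 to -0.01, PSBY to 0.43 and RBCS1A to 0.00, and median-of-ratios scaling turned LKP2 to -0.13, PIP1;4 to -0.03 and SUR1 to -0.04. The cause was not tested. Depth of 13718753 reads or more limits genes at 3 reads or fewer, whose folds are bounds.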
